A study of Mus musculus with 9 samples.

Results

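Immediate early genes were followed in sorted lung cancer cells of mice with no, 1 or 2 floxed alleles of Smarca4, which encodes the ATPase of the SWI/SNF chromatin remodelling complex. The 10 genes were Fos, Fosb, Jun, Junb, Atf3, Egr1, Klf4, Nr4a1, Ier2 and Socs3. They were chosen by symbol, and all 10 were among the 23224 gene symbols of the deposited count table and among the 15663 that passed a filter on low counts. Expression was measured by bulk sequencing of polyA RNA, in SMARTseq libraries made for low input. KP tumours were Smarca4+/+ (n = 4 libraries), KPS-HET tumours Smarca4fl/+ (n = 2) and KPS tumours Smarca4fl/fl (n = 3). The labels do not say that the libraries came from separate mice. All groups carried Trp53fl/fl and a Cre-dependent tdTomato reporter at Rosa26 on a mixed B6 and 129S2 background. They also shared 1 further Cre-activated allele that is not reported here. All received adenoviral Cre through the trachea, and the CCSP promoter that drove this Cre limits recombination to the cells in which it works, mainly club cells of the airway. Cells were taken from moribund mice, after enzymatic digestion of the lungs and FACS, and the sources used here state no ages. Every library passed through digestion and sorting, so RNA made in the tumour and RNA made during dissociation cannot be told apart in any group.

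Immediate early genes are transcribed within minutes of a growth factor, cytokine or stress signal, without new protein synthesis, because the factors that switch them on are already present and wait for phosphorylation. The ERK pathway acts on them through ternary complex factors bound with serum response factor, protein kinase A and related kinases act through CREB, and cytokine receptors act through STAT3. Most of the products are transcription factors that turn on a later wave of genes. The same genes are known to respond when tissue is digested with warm enzymes, which makes them a common concern in sorted cells.

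Promoter sequences are shown for Nr4a1, which fell in KPS, for Socs3 and Klf4, which rose, and for Fos, which did not pass the test, so that the binding motifs of these signalling routes can be set beside the values. The sequences are those of RefSeq on GRCm38.p6, which held a promoter for 8 of the 10 genes, all but Egr1 and Ier2. Each sequence runs from 250 bases before the annotated start to 50 after it. Capitals mark the matches described after the sequences.
Nr4a1 promoter, chr15:101266596-101266895, plus strand: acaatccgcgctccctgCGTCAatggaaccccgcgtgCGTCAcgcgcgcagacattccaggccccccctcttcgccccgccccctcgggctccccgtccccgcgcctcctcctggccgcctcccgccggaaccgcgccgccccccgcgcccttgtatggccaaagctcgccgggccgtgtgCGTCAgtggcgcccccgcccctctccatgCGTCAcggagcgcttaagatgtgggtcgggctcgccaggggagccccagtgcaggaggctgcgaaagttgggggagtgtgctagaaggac
Socs3 promoter, chr11:117969317-117969616, minus strand: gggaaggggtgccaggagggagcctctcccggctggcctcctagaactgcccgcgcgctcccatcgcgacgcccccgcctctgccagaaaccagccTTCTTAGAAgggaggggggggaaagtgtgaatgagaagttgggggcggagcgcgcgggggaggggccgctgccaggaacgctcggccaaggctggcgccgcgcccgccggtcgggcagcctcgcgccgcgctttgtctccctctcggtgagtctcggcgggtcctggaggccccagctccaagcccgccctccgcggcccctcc
Klf4 promoter, chr4:55532426-55532725, minus strand: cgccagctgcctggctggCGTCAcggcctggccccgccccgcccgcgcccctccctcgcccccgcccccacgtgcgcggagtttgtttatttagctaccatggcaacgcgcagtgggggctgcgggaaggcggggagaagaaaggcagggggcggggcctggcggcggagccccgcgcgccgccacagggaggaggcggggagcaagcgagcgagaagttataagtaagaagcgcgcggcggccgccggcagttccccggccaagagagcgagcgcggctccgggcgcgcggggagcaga
Fos promoter, chr12:85473640-85473939, plus strand: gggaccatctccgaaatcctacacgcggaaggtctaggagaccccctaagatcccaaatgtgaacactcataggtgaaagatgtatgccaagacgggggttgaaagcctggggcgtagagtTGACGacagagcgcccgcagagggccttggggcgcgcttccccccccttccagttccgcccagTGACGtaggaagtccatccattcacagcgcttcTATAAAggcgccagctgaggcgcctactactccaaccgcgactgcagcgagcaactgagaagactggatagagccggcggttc

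Across these 8 windows 7 motifs were searched on both strands. These were the CArG box of serum response factor, the full cAMP response element TGACGTCA, its 5-base core TGACG, the AP-1 site TGACTCA, the EGR site GCGTGGGCG, the STAT site TTCNNNGAA and the TATA box TATAAA. A full element would also count as a match of the core. Nr4a1 held 4 copies of the core, starting 233, 213, 69 and 40 bases before the start, all on the other strand, so that they read CGTCA in the sequence shown. A window with 4 or more copies was found in 0.231% of all 32851 promoters in the table, and a window with any copy in 20.8%. The cut-off of 4 is the count of Nr4a1 itself, so the first share describes this gene and is not a test. Fos held 2 copies, 129 and 66 bases before the start, with a TATA box 33 bases before it, a motif in 13.6% of all promoters. The core was also present once each in Fosb, Junb, Atf3 and Klf4, and Junb held a TATAAA match at its annotated start. The Socs3 window held a STAT site, TTCTTAGAA, 154 bases before the start, where 8.3% of all promoters had such a site, and no other of the 8 windows did. No window held a CArG box (1.63% of all promoters), a full cAMP response element (1.79%), an AP-1 site (5.2%) or an EGR site (0.612%). These are matches of letters in a short window and do not show binding. Sites more than 250 bases before the start, or with other letters than those searched, would be missed. The absence of a match therefore does not show that a gene lacks such a site, and Egr1 and Ier2 were not searched.

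Library totals ran from 12607471 to 37114352 estimated counts. The 10 genes had between 201 and 49008 counts per library, so counting error was small beside the spread between libraries. Smarca4, the targeted gene, lay between 109.6 and 137 CPM (counts scaled by library size with TMM factors) in KP, at 76.4 and 97.2 CPM in KPS-HET and between 39.9 and 55.5 CPM in KPS, in the order of the labels. Epithelial markers, among them Epcam, Cdh1, Krt8 and Nkx2-1, summed to between 5859.0 and 9323 CPM in every library, though in KPS against KP Cdh1 rose (1.02 ± 0.17, adjusted p = 0.00854) and Nkx2-1 fell (-0.68 ± 0.16, adjusted p = 0.0309). The summed level of 12 macrophage markers was 108 to 143 CPM in KP, 190.4 and 204 CPM in KPS-HET and 333 to 678 CPM in KPS. Cd14 alone made up a large part of this sum, with means of 97.4 ± 15.4 CPM in KP, 129.0 ± 55.3 CPM in KPS-HET and 268.6 ± 17.3 CPM in KPS (SD). The other markers had lower means in KPS, with Cd68 highest among them at 48.0 ± 41.7 CPM. The 8 endothelial markers summed to 14.7 to 25.9 CPM in KP and 19.8 to 107.5 CPM in KPS, and the 8 fibroblast markers to 6.68 to 10.1 CPM in KP and 8.64 to 68.1 CPM in KPS, highest in KPS replicate 3. Red blood cell markers summed to 0.63 to 11.8 CPM in KP and 42.3 to 73.8 CPM in KPS, B cell markers to 8.32 to 9.27 CPM and 3.06 to 5.31 CPM, neutrophil markers to 16.6 to 42.9 CPM and 29.4 to 73.4 CPM, and T and NK cell markers to 0.804 to 4.73 CPM and 4.61 to 15.1 CPM. The red blood cell sum was nearly all Hba-a1 (mean 5.64 CPM in KP and 59.2 CPM in KPS). The B cell sum was mostly Cd79b (mean 8.61 CPM in KP and 3.53 CPM in KPS). In sorted bulk RNA, fewer cells of a type and less RNA per cell cannot be told apart.

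These were abundant transcripts in every library. Together the 10 genes took 0.486% to 0.709% of all counts in KP, 0.345% and 0.491% in KPS-HET and 0.353% to 0.402% in KPS, so the summed share of every KPS library lay below that of every KP library. Divided by the length of the longest coding transcript (GENCODE M21, not the lengths used by the authors), Fos stood highest in KP at 805 ± 185 CPM per kb (SD, n = 4), above 99.6% of the 13319 tested genes that had a length. Junb (378 ± 91.5 CPM per kb), Ier2 (353 ± 99.3), Jun (280.2 ± 16.5), Egr1 (275 ± 27.0) and Atf3 (207 ± 72.4) followed, and each of these overlapped its neighbour in the order. Nr4a1 came next at 61.7 ± 10.7 CPM per kb, then Socs3 at 30.9 ± 8.16, Fosb at 21.3 ± 4.91 and Klf4 at 7.83 ± 1.06. The gaps from Fos to Junb, from Atf3 to Nr4a1, from Nr4a1 to Socs3 and from Fosb to Klf4 were wider than the spread of the libraries, while Socs3 and Fosb overlapped. Klf4 lay above only 53.4% of genes.

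**Figure D1:**
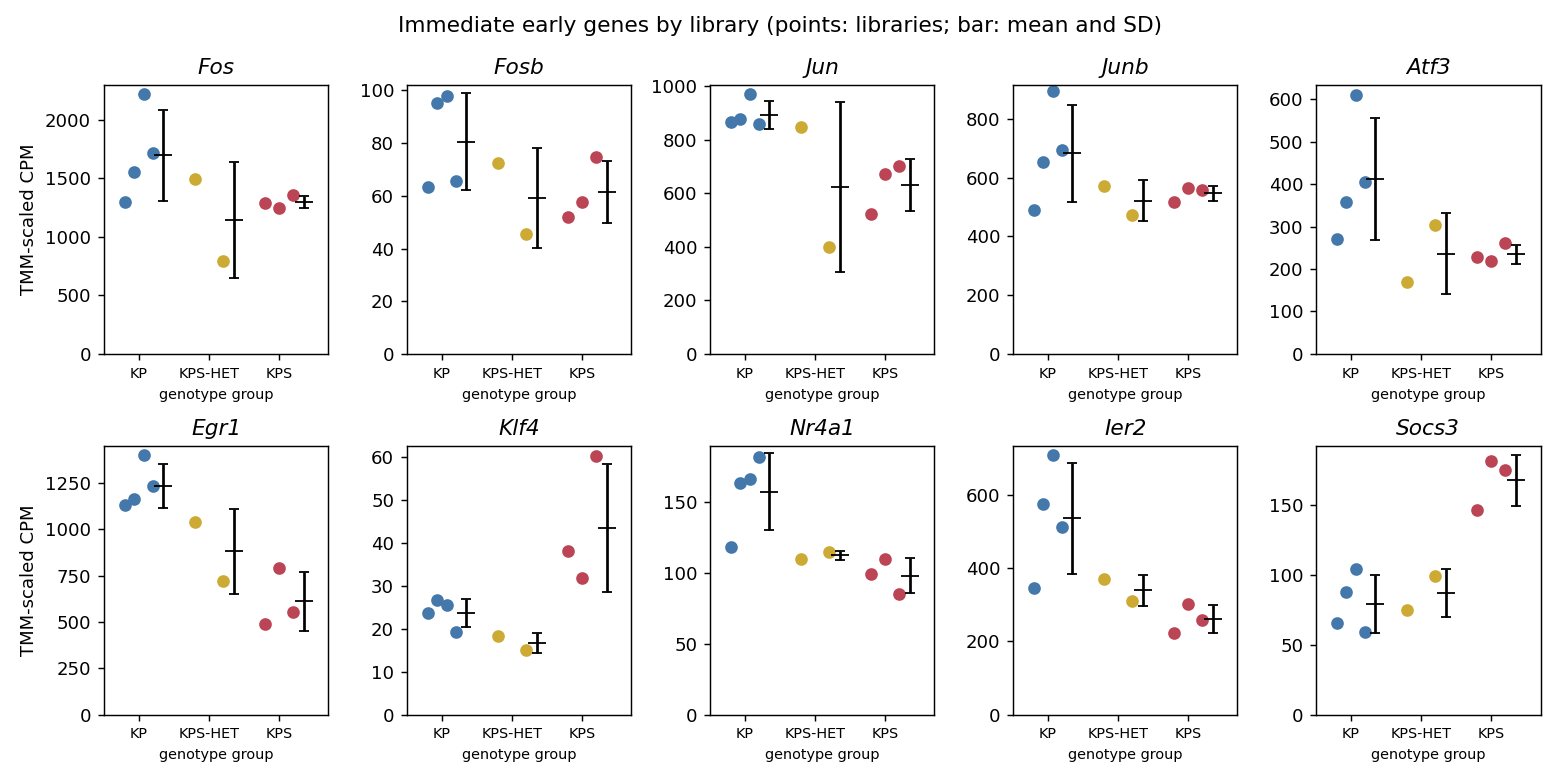
TMM-scaled CPM of each of the 10 genes (y axis, from 0) in the 4 KP, 2 KPS-HET and 3 KPS libraries, 1 point per library, with the group mean and SD as a black bar beside the points. All 3 KPS libraries lie below all 4 KP libraries for Jun, Atf3, Egr1, Nr4a1 and Ier2 and above them for Klf4 and Socs3.

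The main comparison asked whether loss of both Smarca4 alleles went with another level of these genes. Egr1, Ier2 and Nr4a1 fell in KPS against KP, and Socs3 and Klf4 rose, so 5 of the 10 passed the test (a gene is called where the adjusted p of edgeR's quasi-likelihood test is below 0.05). Over all genes tested 7.24% were called, 3.96% as higher and 3.28% as lower. The 5 AP-1 genes, Fos, Fosb, Jun, Junb and Atf3, were not called. Because the genes were picked with earlier results of these data known, the count describes them and is not independent support.

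EGR1 is a zinc finger factor that ERK signalling induces through serum response factor. Its gene stood at 1131, 1164, 1402 and 1233 CPM in KP, at 1041 and 718.5 CPM in KPS-HET and at 487, 789.8 and 554 CPM in KPS. Every KPS-HET and KPS library was below every KP library, while the KPS-HET and KPS libraries overlapped. The log2 fold change between KPS and KP was -1.01 ± 0.19 (SE; adjusted p = 0.0168), from a mean of 1233 ± 121 CPM to 610.4 ± 159 CPM (SD).

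IER2 is a small nuclear protein encoded by a single-exon immediate early gene. Its level was 347, 577, 711 and 512 CPM in KP, 370.4 and 309.7 CPM in KPS-HET and 224, 302 and 259.7 CPM in KPS. Every KPS library was below every KP and every KPS-HET library. Ier2 fell by 1.04 ± 0.22 on the log2 scale in KPS against KP (adjusted p = 0.0246).

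NR4A1 is an orphan nuclear receptor whose activity is set mainly by how much of it is made. Nr4a1 lay at 118, 164, 167 and 182 CPM in KP, at 110.3 and 115 CPM in KPS-HET and at 99.3, 109.9 and 85.3 CPM in KPS. The 3 groups did not overlap one another, with KP highest and KPS lowest. Nr4a1 fell by 0.68 ± 0.16 on the log2 scale in KPS against KP (adjusted p = 0.0322).

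SOCS3 is induced by STAT3 and blocks signalling from receptors that use gp130. Socs3 stood at 65.4, 87.3, 104 and 58.7 CPM in KP, at 74.5 and 98.7 CPM in KPS-HET and at 146, 181 and 175 CPM in KPS. The KPS-HET libraries lay within the KP range and all KPS libraries lay above both other groups. The log2 fold change between KPS and KP was 1.08 ± 0.20 (adjusted p = 0.0146).

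KLF4 is a zinc finger factor of differentiating epithelium. Its gene was the lowest of the 10, at 23.7, 26.6, 25.4 and 19.2 CPM in KP, 18.4 and 15.1 CPM in KPS-HET and 38.1, 31.9 and 60.3 CPM in KPS. The KPS libraries were above all others, with KPS replicate 3 well apart from its group, and the KPS-HET libraries were below all others. Klf4 rose by 0.87 ± 0.23 on the log2 scale in KPS against KP (adjusted p = 0.0467, just under the threshold).

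The AP-1 genes encode the leucine zipper proteins that pair to form AP-1, with FOS and FOSB as partners of JUN and JUNB, and ATF3 as a stress-induced partner that often represses. Fos lay at 1296.5, 1559, 2221 and 1714 CPM in KP, at 1498 and 795 CPM in KPS-HET and at 1294, 1246 and 1356 CPM in KPS. The KPS libraries were closely grouped and overlapped the KP range. The log2 fold change of Fos in KPS against KP was -0.39 ± 0.23 (adjusted p = 0.343). Fosb (-0.39 ± 0.23, adjusted p = 0.330) and Junb (-0.32 ± 0.18, adjusted p = 0.318) also overlapped between these groups.

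Jun and Atf3 were lower in every KPS library than in any KP library, but neither was called. Jun stood at 866, 877, 972 and 859.6 CPM in KP and 522, 671 and 700.4 CPM in KPS (-0.50 ± 0.22, adjusted p = 0.203). Its KPS-HET libraries were at 848 and 400.5 CPM, far from each other, and that spread enters the error of the shared fit. With only the KP and KPS libraries in the fit the adjusted p of Jun was 0.0513. Atf3 stood at 272, 357, 610.0 and 405 CPM in KP, 168 and 304 CPM in KPS-HET and 227.5, 218 and 260.5 CPM in KPS (-0.80 ± 0.28, adjusted p = 0.109), and DESeq2 called it (adjusted p = 0.0366).

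Over the 10 genes the groups did not overlap for 7, of which 5 were lower and 2 higher in KPS. Over all genes tested 10.1% were lower without overlap and 11.7% higher. The fold changes of 8 of the 10 were negative, against 49.1% of all genes. The median of the 10 was -0.45 where the median of all genes was 0.01.

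**Figure D2:**
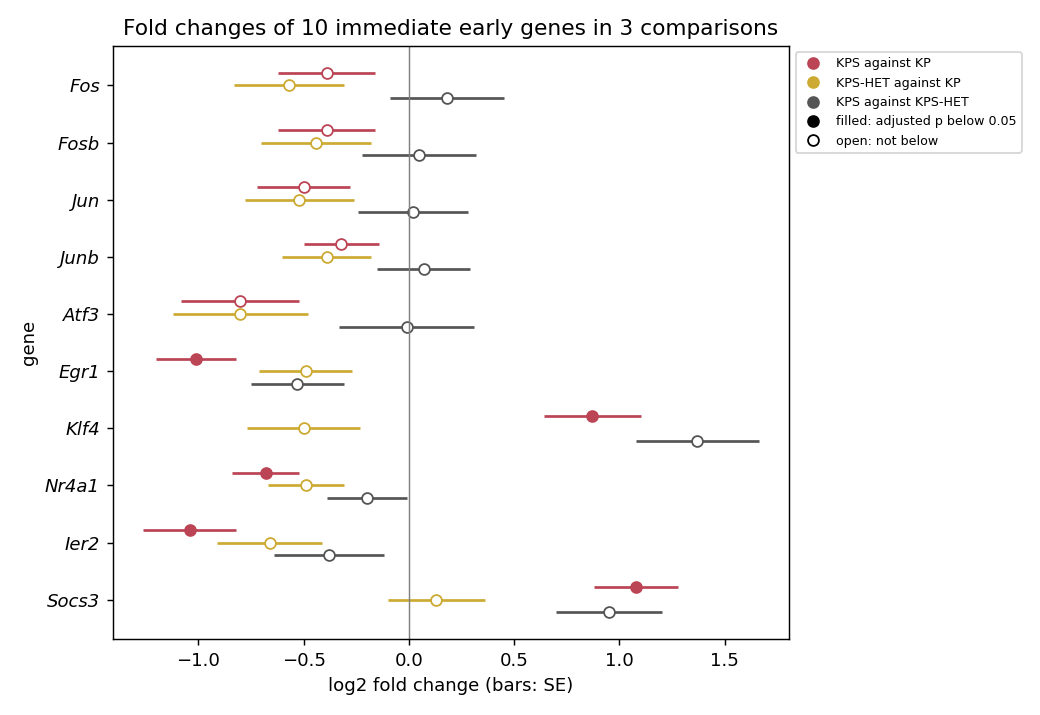
Log2 fold change of each gene (x axis) with its SE as a bar, for KPS against KP (red), KPS-HET against KP (yellow) and KPS against KPS-HET (grey). Filled points mark an adjusted p below 0.05, which occurs for Egr1, Klf4, Nr4a1, Ier2 and Socs3 in KPS against KP and in no other comparison.

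KPS-HET was compared with KP to ask what a single floxed allele went with. None of the 10 genes was called, and 0 of 15663 genes (0.0%) were, by edgeR or by limma-voom, while DESeq2 called 4 genes and none of the 10. At an unadjusted p below 0.05 edgeR had 627 genes, 4.0% of those tested, among them Atf3, Nr4a1 and Ier2. The log2 fold changes of Atf3 (-0.80 ± 0.32), Ier2 (-0.66 ± 0.25), Fos (-0.57 ± 0.26), Jun (-0.52 ± 0.26), Klf4 (-0.50 ± 0.27), Egr1 (-0.49 ± 0.22), Nr4a1 (-0.49 ± 0.18), Fosb (-0.44 ± 0.26) and Junb (-0.39 ± 0.21) were negative and that of Socs3 was 0.13 ± 0.23. The adjusted p was 0.974 for the 9 negative values and 0.982 for Socs3. Over all genes 50.9% of the fold changes were negative. The median of the 10 was -0.49 where the median of all genes was -0.01. For Jun, Egr1, Klf4 and Nr4a1 both KPS-HET libraries were below every KP library, where 6.63% of all genes were lower without overlap. KPS-HET replicate 2 had the lowest Fos, Fosb, Jun, Junb and Klf4 of all 9 libraries. Both comparisons use the same KP libraries, so their values are not independent of each other.

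KPS against KPS-HET tests the difference between those effects directly. None of the 10 genes was called, where 146 of all genes (0.932%) were. Klf4 (1.37 ± 0.29, adjusted p = 0.0587) and Socs3 (0.95 ± 0.25, adjusted p = 0.104) had the largest fold changes of the 10, in both cases with every KPS library above both KPS-HET libraries, and DESeq2 called both (adjusted p = 0.000655 and 0.0131). Over all genes 18.1% were higher without overlap in KPS and 18.3% lower. Egr1 differed by -0.53 ± 0.22 (adjusted p = 0.277), Ier2 by -0.38 ± 0.26 (adjusted p = 0.499) and Nr4a1 by -0.20 ± 0.19 (adjusted p = 0.640), the last 2 without overlap. Fos, Fosb, Jun, Junb and Atf3 lay between -0.01 and 0.18, with SE of 0.22 to 0.32.

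The 10 genes did not vary as 1 block over the 9 libraries. KP replicate 3 had the highest level of Fos, Fosb, Jun, Junb, Atf3, Egr1 and Ier2 of all libraries, and their summed CPM with the other 3 genes was 7205 there, against 4675 to 5746 in the other KP libraries. KP replicate 1 was the lowest of its group for 7 of the 10. Within KP the highest library exceeded the lowest by 2.25-fold for Atf3, 2.05-fold for Ier2, 1.82-fold for Junb and 1.71-fold for Fos, but by 1.13-fold for Jun and 1.24-fold for Egr1. Within KPS the range was 1.09-fold for Fos and for Junb and 1.89-fold for Klf4. The SD within groups ran from 0.22 (Nr4a1) to 0.43 (Atf3) on the log2 scale, and 25.6% and 56.9% of all genes had a smaller one. These shares are over tested genes of any level. They do not say how the spread compares with that of genes as abundant as these.

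**Figure D3:**
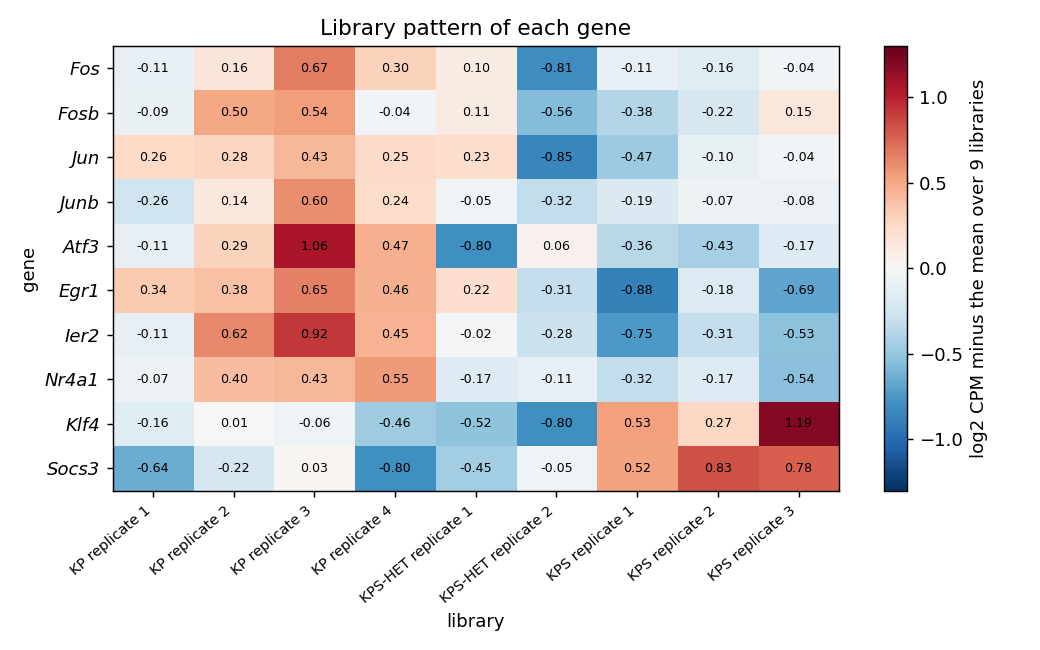
Log2 CPM of each gene (rows) in each library (columns), minus the gene's mean over the 9 libraries, with the value in each cell. KP replicate 3 is high for Atf3 (1.06), Ier2 (0.92) and Fos (0.67), KPS-HET replicate 2 is low for Fos (-0.81) and Jun (-0.85), and Klf4 and Socs3 are highest in the KPS columns.

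Likeness between genes was taken as the root mean square difference of these centred log2 values over the 9 libraries, among 11211 genes with a mean of at least 5 CPM. Ranks among 11210 genes depended on the gene they were taken from. In likeness to Fos, Junb ranked 4th (0.186), Jun 9th (0.201) and Fosb 19th (0.216). In likeness to Jun, Fos ranked 4th, Fosb 11th and Junb 190th (0.291). In likeness to Junb, Fos ranked 83rd, Fosb 281st, Nr4a1 604th (0.243) and Jun 1839th. Egr1 ranked 5th and Nr4a1 9th in likeness to Ier2 (0.225 and 0.249), while in likeness to Nr4a1 Ier2 ranked 223rd and Egr1 712th. Outside the set, the nearest genes to Fos were Zfp60 (0.126), Taf6 (0.176) and Zfp36 (0.18), and Zfp36, which encodes an mRNA decay factor, was also among the 3 nearest to Junb (0.116), after Ebpl (0.0984) and Zfp771 (0.112). The nearest gene to Atf3 was Dusp5 (0.175), a phosphatase of ERK. Egr1 was nearest to Cd36 (0.152), Slc26a9 (0.167) and Dram1 (0.169), Ier2 to Nthl1 (0.111), and Nr4a1 to Tada3 (0.151). Socs3 was nearest to 0610040J01Rik (0.142), followed by Ptpn2 (0.174), and Klf4 to Dmd (0.253), Fosb to Coq10a (0.129) and Jun to Bms1 (0.194). The values describe these 9 libraries, which share their group differences, and carry no test.

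Among 30 other immediate early genes tested, 1 rose and 1 fell in KPS against KP, and their median log2 fold change was 0.10. Beside the counts of this and the later lists stand the shares over all genes tested, 3.96% called as higher and 3.28% as lower. Arc, an activity-regulated gene best known from neurons, stood at 45.9, 78.4, 61.9 and 101.5 CPM in KP, 60.3 and 44.0 CPM in KPS-HET and 22.9, 15.9 and 19.0 CPM in KPS. All KPS libraries were below all others, and Arc fell by 1.90 ± 0.27 on the log2 scale (adjusted p = 0.00524), a call that held in all 16 alternative fits. Ctgf, a matrix-associated YAP target, rose by 2.18 ± 0.53 (adjusted p = 0.0396) from 112.0 ± 45.3 to 508 ± 444 CPM. The KPS value of Ctgf rested on KPS replicate 3, at 1016 CPM against 195 and 313 CPM in the other KPS libraries, and without that library the log2 fold change was 1.15 (adjusted p = 0.104). The call of Ctgf was lost in 10 of 16 alternatives, among them the removal of any KP or KPS-HET library.

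Further immediate early genes, some of them relatives of the called genes, gave values on both sides of 0. Dusp1, which encodes a MAP kinase phosphatase, had a log2 fold change of -0.68 ± 0.20 (adjusted p = 0.0635), and Nr4a2, a relative of Nr4a1, one of 1.14 ± 0.32 (adjusted p = 0.0599), both without overlap of the groups. Egr2 (0.39 ± 0.16, adjusted p = 0.159) and Zfp36 (-0.27 ± 0.20, adjusted p = 0.467) were not called. These 4 were named after their values were seen. None of 14 other AP-1 partners was called, with Fosl2 at 0.48 ± 0.16 (adjusted p = 0.0939) and Fosl1 at -0.63 ± 0.34 (adjusted p = 0.288). None of the 12 other KLF factors was called either, with Klf2 at -0.77 ± 0.28 (adjusted p = 0.123) and Klf13 at 0.65 ± 0.23 (adjusted p = 0.125). Some genes stand in more than 1 of these lists.

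Upstream and feedback genes of the ERK route were read beside them. Of 18 kinases and factors that switch immediate early genes on, Mapk3, which encodes the kinase ERK1, fell. It stood at 200.5, 214, 224 and 213 CPM in KP, at 172 and 185.5 CPM in KPS-HET and at 134, 125 and 126 CPM in KPS, and the 3 groups did not overlap. The change of Mapk3 between KPS and KP was -0.73 ± 0.10 (adjusted p = 0.00406) and was called in all 16 alternatives. Mkl1 (-0.55 ± 0.19, adjusted p = 0.103), a cofactor of serum response factor, and the kinase gene Rps6ka3 (0.74 ± 0.25, adjusted p = 0.107) were not called, and the median of the list was -0.04.

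Of 12 ERK feedback and mRNA decay genes 1 rose and 2 fell, with a median of -0.42. Spry2, an inhibitor of receptor tyrosine kinase signalling, fell by 1.10 ± 0.18 (adjusted p = 0.00836). The co-repressors that bind EGR1 went opposite ways: Nab1 rose by 0.81 ± 0.14 (adjusted p = 0.0119), from 89.5 ± 11.2 to 157 ± 13.3 CPM, and Nab2 fell by 0.88 ± 0.21 (adjusted p = 0.0344), from 66.5 ± 14.3 to 36.0 ± 8.73 CPM. Nab2 lost its call in 6 of 16 alternatives, among them those without KP replicate 1 (adjusted p = 0.0669), KP replicate 4 (0.0641), KPS-HET replicate 2 (0.0505), KPS replicate 1 (0.0531) and KPS replicate 3 (0.082). Spry2 and Nab1 lost theirs only with the macrophage marker level as a covariate (adjusted p = 0.0712 and 0.0741).

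The IL6-STAT3 list, to which Socs3 belongs by function, held ligands, receptors, kinases, STAT3 itself, inhibitors and targets. Of 21 genes tested 6 rose and none fell in KPS against KP, and their median log2 fold change was 0.39. The oncostatin M receptor gene Osmr lay at 16.7, 16.8, 18.1 and 9.17 CPM in KP, 16.6 and 22.1 CPM in KPS-HET and 58.8, 43.8 and 37.2 CPM in KPS. All KPS libraries were above all others, and Osmr rose by 1.62 ± 0.26 (adjusted p = 0.00815). Il6st, which encodes the shared receptor chain gp130, stood at 64.3, 57.2, 61.0 and 53.8 CPM in KP, at 46.4 and 53.6 CPM in KPS-HET and at 93.7, 89.9 and 93.1 CPM in KPS. It rose by 0.64 ± 0.11 against KP (adjusted p = 0.0116) and by 0.88 ± 0.14 against KPS-HET (adjusted p = 0.0293).

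Downstream of the receptors, the kinase genes Jak1 (0.62 ± 0.11, adjusted p = 0.0129) and Jak2 (0.86 ± 0.22, adjusted p = 0.0425), Stat3 (0.54 ± 0.13, adjusted p = 0.0326) and Bcl3 (0.76 ± 0.15, adjusted p = 0.0174), a partner of NF-kappaB and STAT3 target, also rose. The acute phase targets Lcn2 (-0.12 ± 0.55, adjusted p = 0.929) and Saa3 (0.24 ± 0.74, adjusted p = 0.885), named after their values were seen, were not called. Osmr and Bcl3 each lost their call in 1 of 16 alternatives, Il6st and Jak1 in 2, Jak2 in 8 and Stat3 in 10. For Osmr it was the fit with the macrophage marker covariate (adjusted p = 0.0735), for Bcl3 the fit without KPS replicate 2 (0.0565), and, besides the covariate, for Il6st (0.0514) and Jak1 (0.0632) the fit without KPS replicate 3. Stat3 and Jak2 lost theirs without KP replicate 1, 3 or 4, KPS-HET replicate 1, KPS replicate 1 or KPS replicate 3. Removing KPS replicate 2 or KPS-HET replicate 2 also ended the call of Stat3, and removing KP replicate 2 that of Jak2 (adjusted p up to 0.109 for Stat3 and 0.161 for Jak2). The macrophage marker covariate ended the calls of Il6st (0.0756), Jak1 (0.132), Jak2 (0.193) and Stat3 (0.102) as well as Osmr, so that Bcl3 alone of the 6 was called in that fit, and Stat3 also lost its call with only the groups compared in the fit (0.0527).

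Heat shock and integrated stress response genes were also read, because some stress genes are known to respond to enzymatic digestion. Not every gene of these lists is such a gene, and the lists are not a measure of handling. Of 12 heat shock genes 1 fell and none rose in KPS against KP, where 7.24% of all genes tested were called. The fold changes of 10 of the 12 were negative, against 49.1% of all genes, and the median was -0.32. The co-chaperone gene Dnajb1 stood at 196, 270.3, 229 and 209 CPM in KP, at 173 and 138.5 CPM in KPS-HET and at 78.4, 107 and 93.2 CPM in KPS. The 3 groups did not overlap, and Dnajb1 fell by 1.29 ± 0.16 (adjusted p = 0.0033, called in all 16 alternatives). Hspa1a (-1.04 ± 0.30, adjusted p = 0.0673) and Hspb1 (1.76 ± 0.46, adjusted p = 0.0504) were not called. DESeq2 called both (adjusted p = 0.00582 for Hspa1a and 0.00106 for Hspb1), as did limma-voom (0.0384 and 0.041), and over the 16 alternatives Hspa1a was called in 3 and Hspb1 in 5. None of 10 genes of the integrated stress response, to which Atf3 responds, was called, with Vldlr at -0.72 ± 0.21 (adjusted p = 0.0645), Nupr1 at 1.25 ± 0.38 (adjusted p = 0.0784) and a median of -0.04. DESeq2 called both of these genes (adjusted p = 0.0158 for Vldlr and 0.00733 for Nupr1), and each was called in 3 of 16 alternatives. The part of dissociation in the result was not tested, since all libraries were dissociated.

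**Figure D4:**
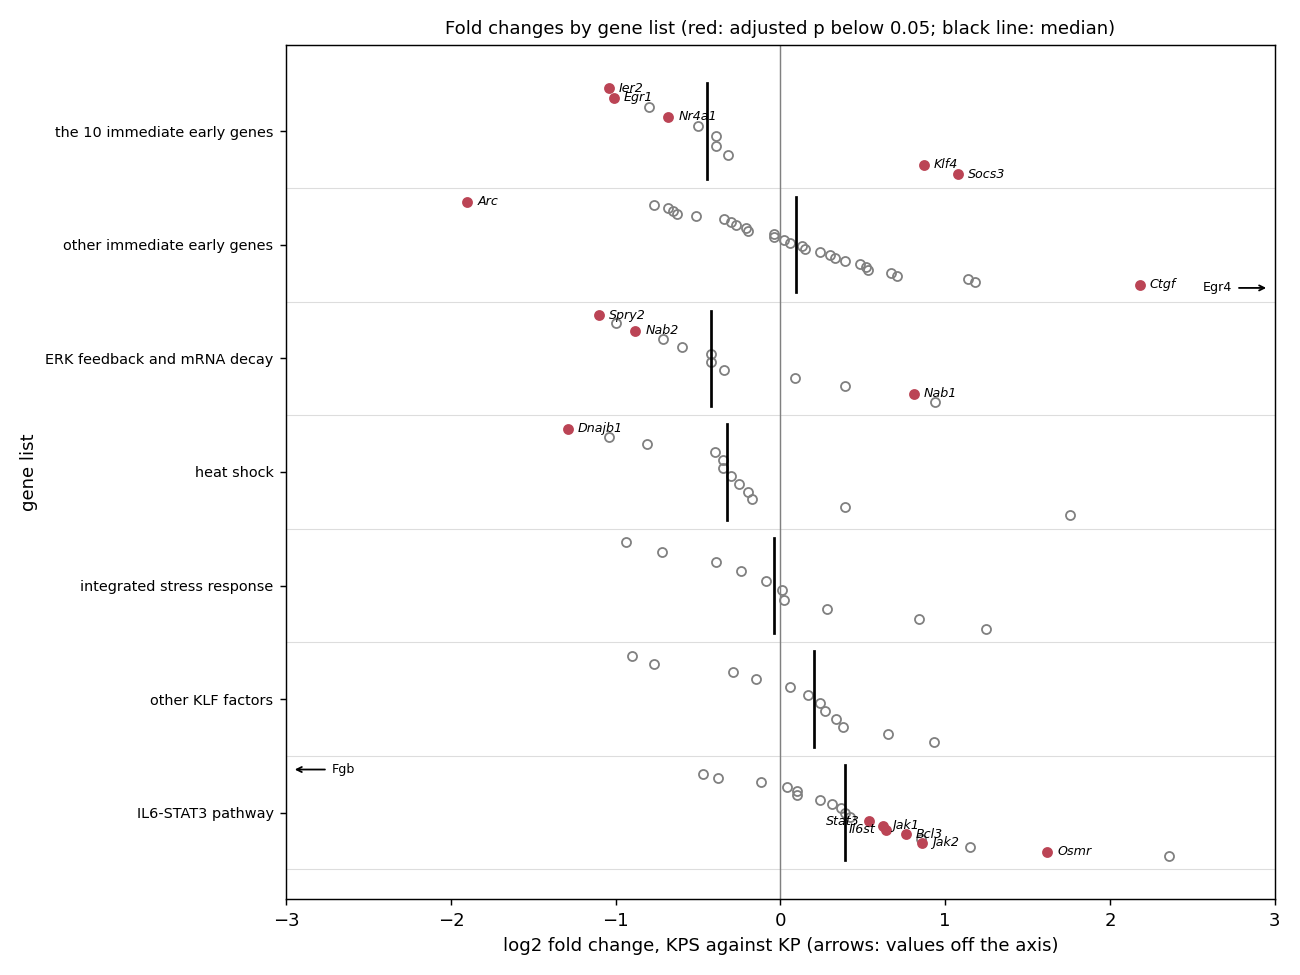
Log2 fold change between KPS and KP (x axis) of each tested gene in the set of 10 and in 6 lists, sorted within a list from top to bottom, with red points for an adjusted p below 0.05 and a black line at the median. The median of the 10 immediate early genes is -0.45 and that of the 30 others 0.10, while the 6 called genes of the IL6-STAT3 list lie to the right of 0. Arrows stand for Egr4 and Fgb, which had almost no counts in a group, so that their fitted values are not shown.

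Markers of other cells moved with genotype as well. The haemoglobin gene Hba-a1, the only red blood cell marker tested, rose (3.41 ± 0.82, adjusted p = 0.0382). So did the endothelial gene Vwf (2.28 ± 0.49, adjusted p = 0.0242) and the fibroblast gene Col1a1 (2.64 ± 0.69, adjusted p = 0.0477). The B cell gene Cd79b fell (-1.28 ± 0.29, adjusted p = 0.0299), while Cd79a, the only other B cell marker tested, was at 0.97 ± 1.25 (adjusted p = 0.703). All 12 macrophage markers had positive fold changes in KPS against KP, with a median of 3.06 and 2 called, and none was at 0 in any group. With the mean log2 level of these markers as a covariate in the shared fit, 308 genes were called in place of 1134, and of the 10 genes Socs3 kept its call (1.43, adjusted p = 0.0351). The fold changes of the other called genes moved little in that fit, to -0.97 for Egr1, -0.95 for Ier2, -0.65 for Nr4a1 and 0.81 for Klf4, but their adjusted p rose to 0.131, 0.193, 0.217 and 0.304. Among the genes not called, Fos moved from -0.39 to -0.74, Jun from -0.50 to -0.73 and Atf3 from -0.80 to -0.51. Fosb moved from -0.39 to -0.48 and Junb from -0.32 to -0.39. The marker level is highest in KPS, so the covariate and genotype share much of their variation. Whether RNA of macrophages or of the other cells contributed to the levels of the 10 genes was not tested.

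Single libraries decided several calls. Without KPS replicate 3 none of the 10 was called, with adjusted p of 0.0553 for Egr1, 0.0562 for Socs3, 0.0727 for Ier2, 0.0968 for Nr4a1 and 0.180 for Klf4, and 505 genes were called in all. The fold changes then were -0.98, 1.02, -1.06, -0.62 and 0.54. Without KPS replicate 1, Ier2 (adjusted p = 0.0642), Nr4a1 (0.0614) and Klf4 (0.0768) lost their calls. Nr4a1 also lost its call without KP replicate 2 (0.0572), KP replicate 3 (0.054) or KP replicate 4 (0.0685). Klf4 kept its call in 5 of 16 alternatives and lost it without any KP or KPS-HET library, with limma-voom (0.0525), with only the groups compared in the fit (0.0636) and with the macrophage marker covariate. Egr1 was called in 14 of 16 and Socs3 in 15 of 16, and for all 5 genes the direction was the same in all 16.

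**Figure D5:**
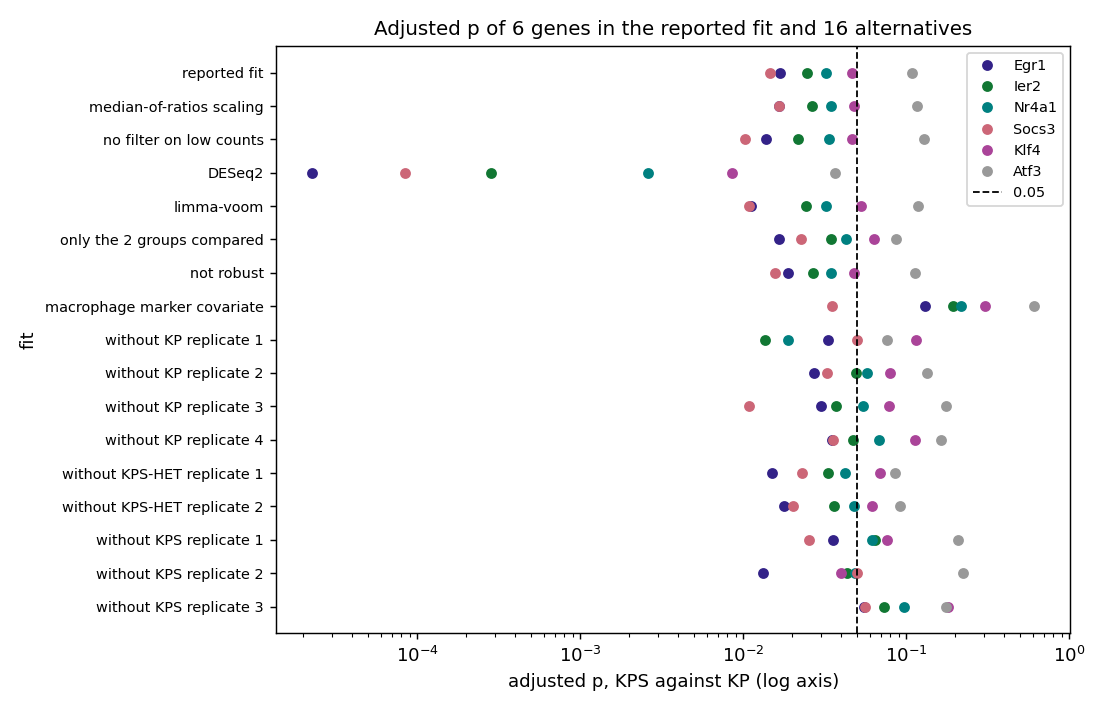
Adjusted p for KPS against KP (x axis, log scale) of 6 genes in the reported fit and in 16 alternatives (y axis), with the threshold of 0.05 as a dashed line. Egr1 and Socs3 lie left of the line in most fits, Klf4 right of it in most, and without KPS replicate 3 every point lies right of it.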

How the data were processed

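RNA was sequenced from 9 libraries of sorted mouse lung cancer cells. The authors deposited RSEM estimated counts (expected counts) per gene symbol for each library; RSEM 1.3.1, Bowtie 1.2.3 and the build mm9 are named in the submitters' processing notes. How reads shared between similar genes were split, and whether strand was used, the sources used here do not state. Values were rounded to whole counts. Genes were kept by filterByExpr (minimum count 10, minimum total 15), which left 15663 of 23224. The main test was edgeR 4.0.16's quasi-likelihood test with TMM scaling and robust estimates in R 4.3.3, on all 9 libraries in 1 fit with 6 residual degrees of freedom, with Benjamini-Hochberg adjustment over all tested genes and a threshold of 0.05. Every adjusted p comes from it unless DESeq2 1.42.0 or limma 3.58.1 is named. The SE is the log2 fold change divided by the square root of F. Levels are CPM, and log2 CPM used a prior count of 2. Lengths are of the longest GENCODE M21 coding transcript per gene.

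The alternatives were median-of-ratios scaling, no filter, DESeq2, limma-voom, a fit of only the groups compared, a fit that was not robust, the mean level of 12 macrophage markers as a covariate, and leaving out each library, 16 fits in all. Groups follow the genotype label. The labels do not say that libraries came from separate mice, so p-values reflect only how these libraries vary, which may be technical. The genes and lists were chosen with earlier results of these data known. From each list the called genes were named, and where fewer than 2 were called the 2 with the smallest p; beside them the 3 nearest genes of each member were taken, of which some are named. One further Cre-activated allele that all groups share is not reported here.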

Additional observations from a re-analysis of the deposited data

Results flagged for a closer look

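In 63 sets of 4 KP values, 7 had a library whose gap to the others was wide for the range of its group. For independent sets chance gives about 1 in 20. Many of these genes were chosen because their library pattern resembled that of a member. The sets are therefore not independent, and the count carries no test. Among the immediate early genes the set with such a gap was that of Jun. Jun was highest in KP replicate 3 at 972 CPM, while the other KP libraries lay between 859.6 and 877 CPM. Among the list genes, Osmr was lowest in KP replicate 4 at 9.17 CPM, Klf13 was highest in KP replicate 4 at 48.7 CPM, and Vldlr was lowest in KP replicate 1 at 30.4 CPM. Among the genes nearest to a member, Bms1 was lowest in KP replicate 2 at 40.3 CPM, Taok3 was lowest in KP replicate 1 at 263 CPM, and Tgm2 was highest in KP replicate 3 at 134 CPM.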

How the results depend on the processing

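For KPS against KP the 10 genes kept the sign of their fold change in all 16 alternatives, and of 160 values 136 stayed on their side of the threshold, 23 lost their call and 1 gained one. The number called was 5, and 1 with the macrophage marker covariate and 0 to 5 when single libraries were left out. Over all genes 1134 were called, against 2342 with DESeq2, 308 with the covariate and 505 to 956 without single libraries. In KPS-HET against KP DESeq2 called 4 genes, and Socs3 ran from -0.08 to 0.33 without single libraries, negative only without KPS-HET replicate 2. In KPS against KPS-HET, where 146 genes were called, DESeq2 called 1025 and 2 of the 10, the fit of only those groups 15, the covariate fit 63, and the fits without single libraries 1 to 150.

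Fold changes near 0 in KPS against KPS-HET changed sign, none of them called. With single libraries left out Fos ran from -0.21 to 0.67, Fosb from -0.24 to 0.39, Jun from -0.43 to 0.61, Junb from -0.06 to 0.17 and Atf3 from -0.41 to 0.48. With the covariate Fos was -0.01, Jun -0.09 and Atf3 0.24, and Atf3 was 0.07 with limma-voom and 0.00 with no filter. The cause was not tested. No paired analysis was possible because the replicate numbers only follow the order of the samples. With 2 to 4 libraries a group, the spread between libraries and not counting depth limits these values.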
